A study of Mus musculus with 12 samples.

Results

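The SLC25 family comprises the carriers that move metabolites, nucleotides, cofactors and ions across the inner membrane of mitochondria. Genes were taken as members when their symbol began with Slc25a, which gave 47 of the 23420 genes listed in the deposited tables. Of these, 39 passed the filter on low counts and were tested, and 8 did not. RNA had been sequenced from 12 mouse samples in 4 groups of 3 libraries, and the question addressed was how transcript levels differ with loss of the deubiquitinase OTUB1 and with activation of the cells. All groups came from C57BL/6 mice aged 6 to 8 weeks that carried OT-I, a transgenic T cell receptor for an ovalbumin peptide. The wild-type groups are labelled wild type OT-I. The knockout groups are called OTUB1-CD4Cre-OT-I in the design and OTUB1-DKO in the genotype tag. CD4Cre is a recombinase driven by Cd4 regulatory sequence and active in developing T cells, so cells outside the T lineage would keep the gene. Fresh cells were untreated. Stimulated cells had been cultured for 24 h on plate-bound anti-CD3 at 1 µg/ml with anti-CD28 at 1 µg/ml, antibodies that stand in for antigen and costimulation, so culture and stimulation form 1 factor.

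Most carriers of this family share a fold of tandem membrane-spanning repeats and exchange one substrate for another. ADP/ATP carriers export ATP made by oxidative phosphorylation, the phosphate carrier supplies the phosphate for it, and the citrate carrier delivers citrate to the cytosol, where it is cleaved into acetyl units for lipid synthesis. Aspartate-glutamate carriers feed the malate-aspartate shuttle, and other members supply the matrix with nucleotides, folate, NAD, coenzyme A, glutathione and iron. T cell activation is known for growth of mitochondrial mass and for a larger demand on one-carbon, nucleotide and lipid synthesis.

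The libraries held 15064488 to 25920035 gene counts, of which 0.187% to 0.193% were members' counts in fresh and 0.273% to 0.287% in stimulated libraries. The cell type tag names splenic DCs, whereas the design names naive splenic CD8 T cells. The 6 markers of CD8 T cells summed to between 4878 and 5112 CPM (counts scaled to a library of 1000000) in fresh wild type, and 11 markers of dendritic cells, each with counts, to between 1459 and 1786 CPM. That dendritic cell sum was mostly Cd74 (mean 660 CPM), H2-Aa (291), H2-Eb1 (271) and H2-Ab1 (250), class II genes of antigen-presenting cells in general. Itgax averaged 36.2 CPM there, and Flt3, Clec9a, Xcr1, Siglech and Zbtb46 each 22.1 CPM or less. A list of 6 B cell markers summed to between 109 and 127 CPM in fresh wild type. Otub1 itself stood at 72.6, 70.8 and 45.1 CPM in fresh wild type and at 25.4, 28.8 and 28.6 CPM in fresh knockout. After stimulation it stood at 85.7, 100.1 and 96.1 CPM in the wild-type libraries and at 16.2, 13.8 and 14.5 CPM in knockout, so all libraries followed their genotype label. Reads from Y-linked genes reached 5958 counts in 1 library of fresh wild type, 9563 in 1 of fresh knockout and 6590 in 1 of stimulated knockout. The other libraries held at most 10, so these 3 groups each mix both sexes.

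The family as a whole was more abundant after stimulation, and the sum of all 47 members rested on few genes. Summed levels were 1921, 1918 and 1931 CPM in fresh wild type and 2774, 2783 and 2818 CPM in stimulated wild type. In knockout they were 1892, 1858 and 1909 CPM fresh and 2875, 2764 and 2892 CPM stimulated. Stimulated and fresh libraries did not overlap in either genotype, while stimulated knockout and wild type did. The fresh knockout sums lay below the fresh wild-type sums in 3 of 3 libraries (exact two-sided permutation p = 0.1). The exact permutation test gave p = 0.1 for stimulation in each genotype, the smallest value that 3 against 3 allows. The phosphate carrier Slc25a3 and the ADP/ATP carriers Slc25a4 and Slc25a5 together made up 43.5% to 44.4% of the sum in fresh wild type and 56.9% to 57.8% in stimulated wild type. Without these genes the sum was 1067 to 1086 CPM fresh and 1170 to 1200 CPM stimulated in wild type, so most of the gain in CPM lay in them. Without them the fresh sums no longer lay lower in knockout, at 1084 to 1091 CPM against 1067 to 1086 CPM in wild type (exact two-sided permutation p = 0.2). In stimulated cells the sums without them were 1213 to 1242 CPM in knockout, above the 1170 to 1200 CPM of wild type in 3 of 3 libraries (exact two-sided permutation p = 0.1).

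Levels of different carriers were compared per length of exon, as CPM per kilobase (kb). In fresh wild type, Slc25a5, which encodes the ADP/ATP carrier of dividing cells, had the highest level at 242 CPM per kb, followed by Slc25a3 at 58.2 and Slc25a4 at 52.9 CPM per kb. The oxoglutarate carrier Slc25a11, part of the malate-aspartate shuttle, came next at 30.6 CPM per kb, ahead of the NAD carrier Slc25a51 at 20.4 CPM per kb. Slc25a45, a member with poorly defined cargo, held rank 6 at 15.9 CPM per kb. The same first 3 genes led in stimulated wild type, at 569, 85.8 and 80.6 CPM per kb. Below them some members kept close to their rank, such as Slc25a11 (4 to 5), Slc25a51 (5 to 7), Slc25a46 (9 to 10) and Slc25a20 (21 in both), and others moved far. Slc25a45 lay at rank 26 with 3.08 CPM per kb, the citrate carrier Slc25a1 went from rank 20 to 8, the pyrimidine nucleotide carrier Slc25a33 from rank 28 to 9, and the aspartate-glutamate carrier Slc25a13 from rank 34 to 14. Of the 50-base stretches of Slc25a5, 33.8% also occur in other annotated genes, 9 in number, so its counts are uncertain.

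**Figure D1:**
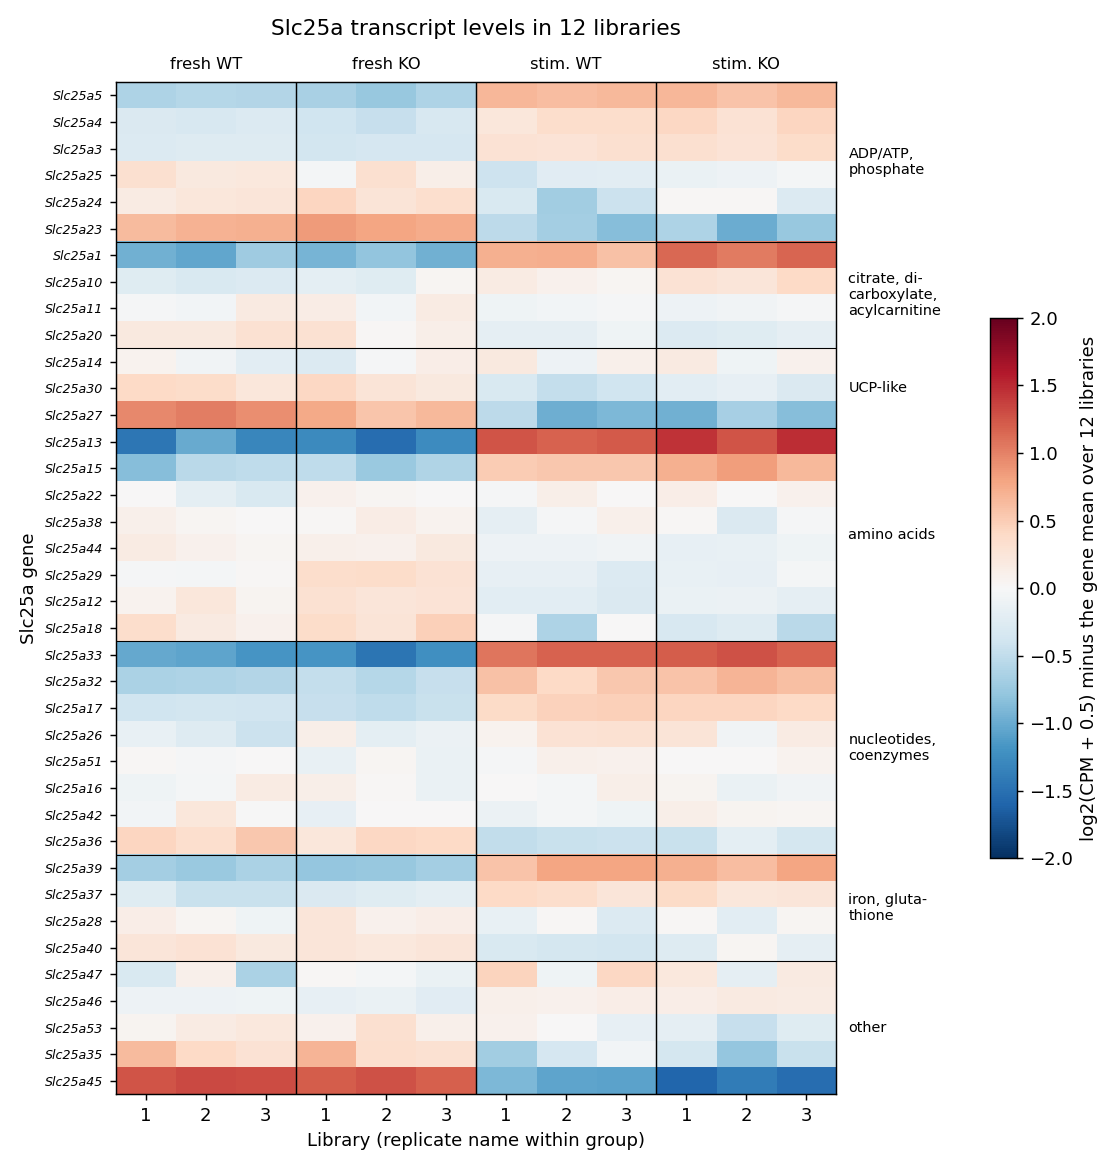
Levels of 38 tested Slc25a genes in 12 libraries, as log2(CPM + 0.5) minus the gene's mean over all libraries. Rows are grouped by cargo and sorted by the stimulation effect in wild type; columns are libraries by group. Fresh libraries are blue and stimulated libraries red for Slc25a13, Slc25a33 and Slc25a1, and the colours are swapped for Slc25a45, Slc25a27 and Slc25a23.

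The 8 members left out of the tests were Slc25a2, Slc25a21, Slc25a31, Slc25a34, Slc25a41, Slc25a43, Slc25a48 and Slc25a54. None of them exceeded 7 counts in a library, and Slc25a48 was listed at 0 in all 12. Slc25a31, the ADP/ATP carrier of germ cells, had 5 counts over all libraries, and Slc25a21, the oxodicarboxylate carrier, had 4.

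Stimulation moved the family in both directions. In wild type, 17 of the 39 tested members rose and 12 fell (edgeR quasi-likelihood test, Benjamini-Hochberg adjusted p under 0.05), where 82.3% of all genes tested were called, 40.8% higher and 41.4% lower. The members' share, 74.4%, was near that background. At least 2-fold changes were called for 7 members upward and 3 downward, against 18.7% and 21.5% of all genes. Fresh and stimulated libraries did not overlap for 29 of the 39 members in wild type and for 31 in knockout, against 84.1% and 84.6% of all genes. In wild type the median absolute log2 fold change was 0.60 for members and 0.78 for all genes tested. In knockout, 14 members rose and 16 fell, where 83.9% of all genes were called, 41.7% higher and 42.2% lower. The changes called reached 2-fold for 7 members upward and 5 downward in knockout, against 19.9% and 22.7% of all genes. Over both comparisons, 14 members were higher in both genotypes and 12 were lower in both, and no member was called in opposite directions. The share of all genes called alike in both genotypes was not computed, so these counts are not read as a trait of the family. Markers moved in the same comparison: the dendritic cell list summed to between 1459 and 1786 CPM in fresh and between 88.8 and 105 CPM in stimulated wild type, with 10 of 11 genes called lower. The B cell list lay between 109 and 127 CPM and then between 22.8 and 27.7 CPM, with 6 of 6 lower. The CD8 T cell list lay between 4878 and 5112 CPM and then between 1842 and 1966 CPM, with 6 of 6 lower. The part of these shifts in the carriers' values was not tested, and in bulk RNA fewer cells of a type and less RNA per cell cannot be told apart.

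**Figure D2:**
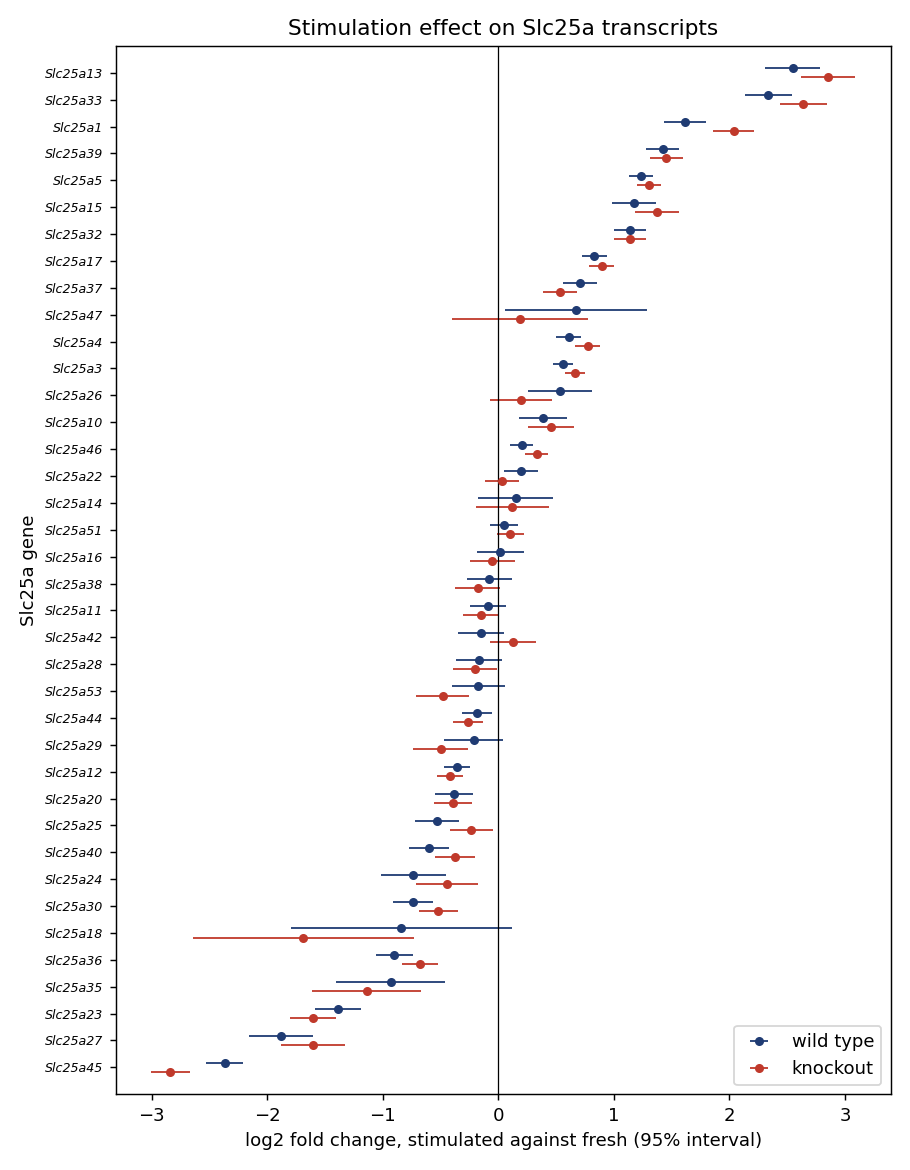
Log2 fold change of 38 tested Slc25a genes, stimulated against fresh, each with its 95% interval, in wild type (blue) and knockout (red), sorted by the wild-type value. Slc25a13 at 2.55 and Slc25a33 at 2.33 stand at the top in wild type, and Slc25a45 at -2.37 and Slc25a27 at -1.88 at the bottom.

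The sequences around the start sites of 4 carriers that rose are shown first, since each holds the same short motif. The motif, the E-box CACGTG, is the recognition sequence of MYC, MAX and related factors and reads the same on both strands. It is in capitals in the windows, which run from 250 bases before to 50 bases after the start in the gene's direction and come from RefSeq on GRCm38.p6. The windows are those of Slc25a13 (chr6:6217124-6217423, minus strand), Slc25a33 (chr4:149774218-149774517, minus strand), Slc25a1 (chr16:17928170-17928469, minus strand) and Slc25a15 (chr8:22398228-22398527, minus strand). The motif begins 125, 8, 239 and 77 bases before the start, in that order. Slc25a45, the member that fell most, is set beside them (chr19:5877572-5877871, plus strand) and has no such motif in its window. Because the 4 windows were chosen for the motif, this display is no test of it. The windows of Slc25a39 and Slc25a5, which rose more than Slc25a15 in wild type, also lack it.
Slc25a13: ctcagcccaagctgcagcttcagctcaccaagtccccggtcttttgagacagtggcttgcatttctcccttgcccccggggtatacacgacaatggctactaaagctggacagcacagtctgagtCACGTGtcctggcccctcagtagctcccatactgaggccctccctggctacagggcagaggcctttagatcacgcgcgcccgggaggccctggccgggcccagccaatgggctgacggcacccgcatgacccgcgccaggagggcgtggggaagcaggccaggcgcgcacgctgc
Slc25a33: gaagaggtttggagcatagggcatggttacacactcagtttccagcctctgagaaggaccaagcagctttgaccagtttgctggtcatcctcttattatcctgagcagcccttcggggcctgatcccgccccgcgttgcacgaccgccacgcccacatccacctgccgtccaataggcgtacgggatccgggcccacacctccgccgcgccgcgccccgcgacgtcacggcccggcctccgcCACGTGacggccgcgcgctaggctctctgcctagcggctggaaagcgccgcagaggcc
Slc25a1: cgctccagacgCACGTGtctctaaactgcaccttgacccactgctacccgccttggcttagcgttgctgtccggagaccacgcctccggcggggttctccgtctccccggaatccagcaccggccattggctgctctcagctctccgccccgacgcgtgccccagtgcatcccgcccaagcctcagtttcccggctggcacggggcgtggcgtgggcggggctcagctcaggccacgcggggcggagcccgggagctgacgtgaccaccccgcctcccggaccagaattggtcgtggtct
Slc25a15: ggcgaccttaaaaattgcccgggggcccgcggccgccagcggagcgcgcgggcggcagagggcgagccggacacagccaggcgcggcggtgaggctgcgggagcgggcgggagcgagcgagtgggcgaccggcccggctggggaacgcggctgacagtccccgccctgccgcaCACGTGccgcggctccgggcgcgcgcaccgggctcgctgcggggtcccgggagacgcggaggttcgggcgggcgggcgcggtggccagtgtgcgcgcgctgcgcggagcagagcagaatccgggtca
Slc25a45: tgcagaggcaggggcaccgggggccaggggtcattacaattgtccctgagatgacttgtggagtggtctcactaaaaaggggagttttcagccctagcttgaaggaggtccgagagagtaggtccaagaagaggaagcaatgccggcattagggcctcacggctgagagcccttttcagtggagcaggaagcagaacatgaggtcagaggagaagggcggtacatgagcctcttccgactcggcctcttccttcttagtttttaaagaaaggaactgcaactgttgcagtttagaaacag

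RefSeq windows matched 36 of the 47 members, with 46 windows in all, since some genes have more than 1 start. The E-box was in 8 of the 46 windows (17.4%), in 9.98% of 12042 windows of tested genes and in 7.15% of all 32851 windows. Shares by gene were not computed over all genes. Counted by gene, the E-box was held by 7 of 36 members, in the case of Slc25a14 by overlapping windows. By call in wild-type stimulation, it was found for 4 of 12 members that rose and had a window, for 1 of 9 that fell (Slc25a36) and for 1 of 9 that were not called (Slc25a14). A second window of Slc25a15, at another start, lacked it. Slc25a31, a member that was not tested, held it. The CCAAT box (CCAAT, either strand) was in 22 of 46 member windows (47.8%), against 37.4% of all windows and 37.6% of windows of tested genes. The ETS motif CCGGAAG was in 7 of 46 (15.2%), above the 8.86% of all windows and below the 17.2% of windows of tested genes. The NRF1 core GCGCATG was in 2 of 46 (4.35%), against 3.91% and 6.86%. Both windows with it belong to members that were not tested (Slc25a31 and Slc25a54). No member window held the amino acid response motif TGATGNAA, found in 3.97% of all windows and in 2.48% of windows of tested genes. The 46 member windows include those of members not tested, and repeated windows were dropped for members only, so the shares are not strictly like for like. These matches describe letters in a window and do not show binding.

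Among carriers of adenine nucleotides and phosphate, the 3 abundant members rose and the 3 calcium-regulated members fell in wild type. Slc25a5 stood at 391, 405 and 400.5 CPM fresh and at 949, 918 and 945 CPM stimulated, 2.35-fold higher. Slc25a4, the ADP/ATP carrier of muscle and heart, stood at 125, 122 and 126 CPM fresh and 180, 194 and 195 CPM stimulated. Fresh and stimulated libraries of both genes were far apart. Slc25a3 went from 323 ± 2.77 to 476 ± 6.14 CPM (mean ± SD, n = 3), a log2 fold change of 0.56. Its values are given outside the rule for named genes because of its level.

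The ATP-Mg/phosphate carriers Slc25a23, Slc25a24 and Slc25a25 exchange ATP-Mg for phosphate under control of calcium and so set the adenine nucleotide pool of the matrix. Slc25a23 stood at 38.4, 40.0 and 40.5 CPM in fresh and at 17, 15.1 and 13.5 CPM in stimulated wild type, 2.61-fold lower. Slc25a25 stood at 33.3, 30.3 and 30.7 CPM fresh and at 19.8, 22.5 and 22.7 CPM stimulated. No stimulated wild-type library of either gene reached a fresh one. In knockout, Slc25a25 fell by 0.23 on the log2 scale (SE 0.09, edgeR adjusted p = 0.0232), and its fresh and stimulated knockout libraries overlapped. That call was lost without fresh knockout library 2 (edgeR adjusted p = 0.163), without stimulated knockout library 1 (0.0803) or 2 (0.0544), and when the 3 libraries carrying Y-linked reads were dropped (0.145).

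In the group of citrate, dicarboxylate, oxoglutarate and acylcarnitine carriers, 2 of 4 tested members rose, 1 fell and 1 was not called in wild type. Slc25a1, the citrate carrier, stood at 13.4, 12.7 and 16.0 CPM in fresh wild type and at 43.9, 44.3 and 40.2 CPM in stimulated wild type. The groups were well apart, with a 3.06-fold rise (log2 1.61, SE 0.09, edgeR adjusted p = 5.39e-11). The dicarboxylate carrier Slc25a10 rose by 0.39 on the log2 scale. Slc25a20, the carnitine-acylcarnitine carrier that brings fatty acids in for oxidation, stood at 30.1, 29.8 and 32.3 CPM fresh and 22.9, 23.1 and 24.6 CPM stimulated, which was 1.31-fold lower with no overlap. For Slc25a11 the log2 difference was -0.09 with a 95% interval from -0.24 to 0.06.

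The amino acid carriers held the largest rise among the tested members, beside members that fell. Slc25a13 (citrin), an aspartate-glutamate carrier, stood at 5.22, 7.22 and 5.79 CPM in fresh and 36.7, 34.8 and 36.2 CPM in stimulated wild type. Each stimulated library lay several-fold above each fresh one, and the fitted rise was 5.85-fold (log2 2.55, SE 0.11, edgeR adjusted p = 5.52e-12). Its homologue Slc25a12 (aralar) carries the same substrates and moved the other way, from 76.5, 84.7 and 75.1 CPM to 62.5, 62.6 and 59.5 CPM, 1.28-fold lower. Slc25a15, the ornithine carrier of the urea cycle and polyamine supply, stood at 15.0, 18.8 and 19.2 CPM fresh and 39.3, 40.2 and 40.2 CPM stimulated, 2.26-fold higher with no overlap. Of the other 5 tested members of the group, the glutamate carrier Slc25a22 rose by 0.20 on the log2 scale with overlapping libraries and Slc25a44, a carrier of branched-chain amino acids, fell by 0.19. Slc25a18, Slc25a29 and the glycine carrier Slc25a38 were not called in wild type.

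Of 9 tested carriers of nucleotides and coenzymes, 5 rose, 1 fell and 3 were not called in wild type. Slc25a33, which brings pyrimidine nucleotides into the matrix, stood at 5.22, 5.13 and 4.66 CPM fresh and 24, 26 and 25.9 CPM stimulated. This was a 5.05-fold rise (log2 2.33, SE 0.10, edgeR adjusted p = 2.37e-12), with the groups well apart. An antisense gene, Gm13068, overlaps 14.9% of its exon length, and the strand setting of the counting is not given in the sources used here. The related pyrimidine nucleotide carrier Slc25a36 fell, from 78.8, 73.9 and 84.9 CPM to 41.2, 42.6 and 43.3 CPM, 1.87-fold lower with no overlap. Slc25a32, a folate and FAD carrier, rose from 23.0, 23.3 and 23.7 CPM to 54.2, 47.6 and 52.3 CPM. The peroxisomal cofactor carrier Slc25a17 rose from 40.4, 41.1 and 40.7 CPM to 69.7, 73.2 and 74.1 CPM. Neither gene had overlapping libraries. The S-adenosylmethionine carrier Slc25a26 rose by a smaller amount, 0.53 on the log2 scale. The NAD carrier Slc25a51, at rank 5 per kb in fresh wild type, stood at 112 ± 2.27 CPM fresh and 116 ± 5.53 CPM stimulated, a log2 difference of 0.05 (95% interval -0.07 to 0.17). Slc25a42, a coenzyme A carrier, and Slc25a16 were not called either.

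Within the carriers of iron and glutathione, Slc25a39 and Slc25a40 also moved in opposite directions, whereas of the iron importers only Slc25a37 was called in wild type. Slc25a39, a glutathione importer, stood at 41.8, 40.0 and 43.1 CPM fresh and at 100.4, 116 and 117 CPM stimulated in wild type, 2.68-fold higher. Its homologue Slc25a40 stood at 22.0, 22.6 and 21.4 CPM fresh and 14.9, 14.4 and 14.2 CPM stimulated, 1.52-fold lower. Fresh and stimulated libraries did not overlap for either. Slc25a37 (mitoferrin 1), the iron importer best known from red cell precursors, rose from 47.9, 41.4 and 41.3 CPM to 74.3, 72.3 and 66.8 CPM. The 8 listed markers of red cell precursors summed to at most 4.13 CPM in a fresh and 0.748 CPM in a stimulated wild-type library. Alas2 and Slc4a1 had up to 27 and 29 counts in a fresh library. Hba-a1, Hba-a2, Hbb-b1 and Hbb-b2 were listed at 0 in all 12 libraries, but these are near-identical copies and reads that were not unique had been left out, so the zeros do not show that globin RNA was absent. Slc25a28 (mitoferrin 2) was not called in wild type, at 27.4 ± 2.01 CPM fresh and 24.5 ± 2.51 CPM stimulated.

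Of the 3 carriers related to uncoupling proteins, 2 fell and 0 rose. Slc25a27 (UCP4) stood at 14.5, 15.1 and 14.2 CPM fresh and at 4.86, 3.42 and 3.66 CPM stimulated in wild type, 3.68-fold lower with no overlap. Slc25a30 went from 31.2, 30.4 and 27.7 CPM to 19, 16.9 and 17.7 CPM. Slc25a14 (UCP5) was not called, with a log2 difference of 0.15 (95% interval -0.18 to 0.48).

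The last group, members of the outer membrane or with poorly defined cargo, held the largest fall among the tested members. Slc25a45 stood at 42.8, 44.8 and 43.9 CPM in fresh and 9.22, 8.19 and 8.10 CPM in stimulated wild type. The groups were far apart, with a 5.16-fold fall (log2 -2.37, SE 0.08, edgeR adjusted p = 1.45e-13). Slc25a46, an outer-membrane protein linked to mitochondrial fusion and lipid transfer, rose by 0.20 on the log2 scale. Slc25a35 fell by 0.93, with 31.3% of its exon length overlapped by the antisense gene Rangrf. Slc25a47 rose by 0.67 with overlapping libraries, at levels under 2 CPM in each library, and Slc25a53 was not called.

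In the knockout libraries Slc25a13 and Slc25a33 again rose most under stimulation, and Slc25a45 again fell most. Slc25a13 stood at 5.92, 4.93 and 5.99 CPM fresh and 41.8, 36.6 and 43.1 CPM stimulated in knockout, 7.23-fold higher. Slc25a33 stood at 4.62, 3.76 and 4.51 CPM and then at 26.6, 27.7 and 25.9 CPM, 6.23-fold higher. Slc25a27 stood at 12.5, 10.9 and 11.6 CPM and then at 3.44, 4.34 and 3.79 CPM, 3.03-fold lower. Its fall came after those of Slc25a18 (3.22-fold, at most 0.767 CPM in a knockout library) and Slc25a23 (3.04-fold). No stimulated knockout library overlapped a fresh one for Slc25a13, Slc25a33 or Slc25a27. The 3 members called in wild type alone (Slc25a22, Slc25a26 and Slc25a47) and the 4 called in knockout alone (Slc25a18, Slc25a28, Slc25a29 and Slc25a53) are not shown to differ between genotypes. Their interaction, tested by edgeR, had adjusted p from 0.333 (Slc25a53) to 0.928 (Slc25a28).

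Pairs of carriers with like cargo were compared within each library, after their values had been seen, as the share of 1 member in the pair's CPM per kb. Slc25a13 made up 11.7%, 14.1% and 13.0% of Slc25a13 plus Slc25a12 in fresh wild type and 53.1%, 51.8% and 54.0% in stimulated wild type. Per kb, the minor aspartate-glutamate carrier thus became about equal to the major one. Slc25a33 made up 25.2%, 26.1% and 21.8% of Slc25a33 plus Slc25a36 in fresh wild type and 74.8%, 75.6% and 75.3% in stimulated wild type. The fresh and stimulated ranges were nowhere near each other. The size of the shares depends on exon lengths, which count all annotated exons (3798 bases for Slc25a13, 7342 for Slc25a12, 1887 for Slc25a33 and 9594 for Slc25a36). Before division by length, Slc25a13 stayed below Slc25a12 in stimulated wild type, at 35.9 against 61.5 CPM. Slc25a33 likewise stayed below Slc25a36, at 25.3 against 42.4 CPM. Slc25a39 in Slc25a39 plus Slc25a40 lay between 84.3% and 86.0% fresh and between 95.3% and 96.2% stimulated, and Slc25a37 in Slc25a37 plus Slc25a28 between 48.4% and 50.3% and between 62.3% and 65.8%. Slc25a5 in Slc25a5 plus Slc25a4 lay between 81.7% and 82.6% fresh and between 87.1% and 88.3% stimulated. In knockout the shares of Slc25a13 were 10.0% to 11.7% fresh and 51.4% to 56.6% stimulated, and those of Slc25a33 were 19.8% to 25.5% and 73.4% to 75.9%. For the 5 pairs an exact two-sided permutation test gave p = 0.1 for stimulation in each genotype, the smallest possible, also after adjustment over the pairs. In the pairs of Slc25a13, Slc25a33 and Slc25a39 the 2 members had moved in opposite directions without overlap. Their shares had to separate, so the test adds no support there. Between genotypes the permutation p was 0.2 or more for each of the 5 pairs in fresh and in stimulated cells.

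**Figure D3:**
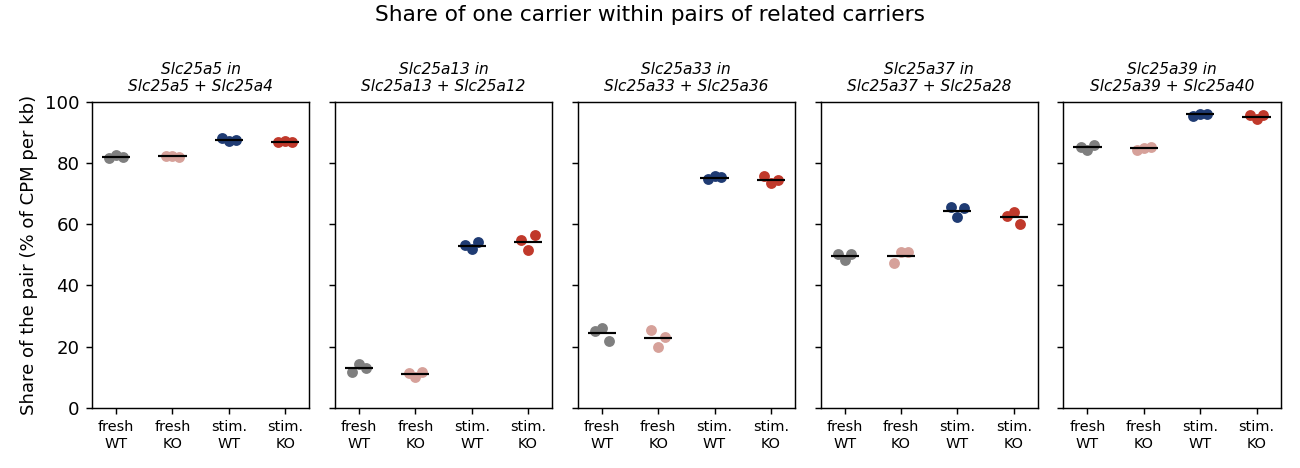
Share of 1 carrier in the CPM per kb of a pair, in percent, for 5 pairs. Points are libraries, lines are group means, and groups run from fresh wild type to stimulated knockout. The share of Slc25a13 goes from 11.7% to 14.1% in fresh wild type to 51.8% to 54.0% in stimulated wild type.

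Loss of Otub1 in fresh cells left no member past the threshold. edgeR called 0 of 39 members, as did DESeq2 and limma-voom, where 1.2% of all genes tested were called by edgeR, 0.98% higher and 0.219% lower. At an unadjusted p under 0.05, 3 of the 39 members were higher and 1 was lower, against 965 and 838 of all 12759 genes tested. The median absolute log2 difference was 0.09 for members and 0.09 for all genes. The 95% interval of the median member reached 0.19 on the log2 scale to either side of its estimate, before any adjustment over genes. Differences well below that size were not detectable here, and larger ones, up to 0.38 for Slc25a29, were not called either. Libraries of the 2 genotypes did not overlap for 11 members, or 28.2%, against 20% of all genes. No gene of the 7 marker lists was called between fresh genotypes.

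The 3 members with the smallest unadjusted p upward all carry amino acids. Slc25a29, a carrier of basic amino acids, stood at 4.25, 4.21 and 4.39 CPM in fresh wild type and 5.66, 5.70 and 5.37 CPM in fresh knockout (log2 difference 0.38, 95% interval 0.13 to 0.63, edgeR adjusted p = 0.144). Slc25a22 stood at 71.1, 62.1 and 57.5 CPM in the wild-type libraries and 75.7, 72.7 and 71.8 CPM in knockout (0.21, 95% interval 0.06 to 0.35, edgeR adjusted p = 0.182). Slc25a12 stood at 78.8 ± 5.16 and 87.9 ± 2.25 CPM (edgeR adjusted p = 0.186). The libraries did not overlap in these genes, which were singled out after their values were seen, and none met the threshold. Slc25a22 was called without fresh wild-type library 1 (log2 0.30, edgeR adjusted p = 0.0330). Slc25a27, the member with the smallest p downward, stood at 14.6 ± 0.451 CPM in the wild-type libraries and 11.7 ± 0.801 CPM in those of the knockout (log2 difference -0.33, 95% interval -0.58 to -0.08, edgeR adjusted p = 0.212).

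**Figure D4:**
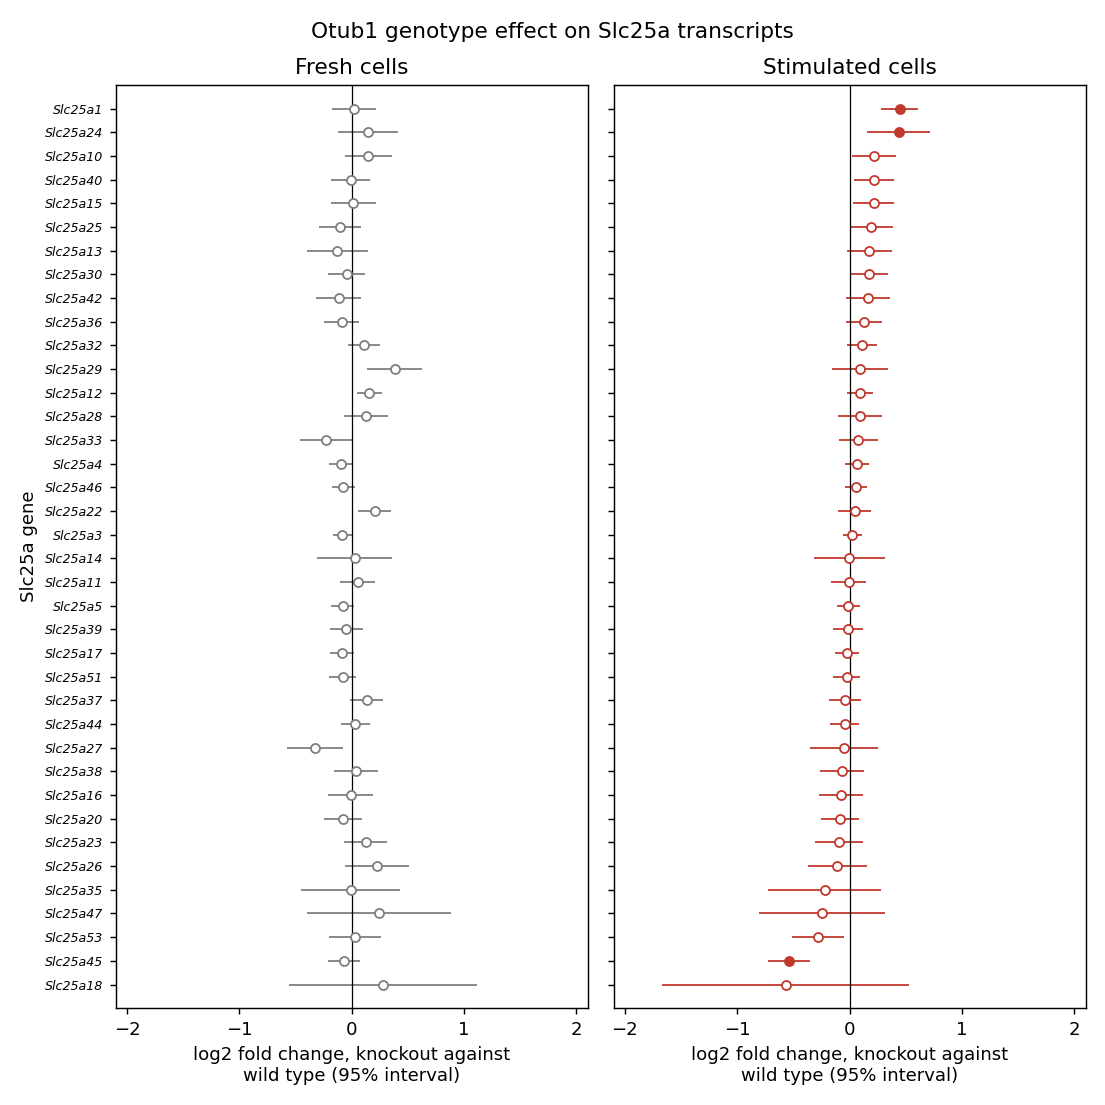
Log2 fold change of 38 tested Slc25a genes, knockout against wild type, each with its 95% interval, in fresh (left) and stimulated cells (right). Filled points are called at an edgeR adjusted p under 0.05; these are Slc25a1, Slc25a24 and Slc25a45 in stimulated cells, at 0.45, 0.44 and -0.54.

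In stimulated cells, Slc25a1 and Slc25a24 were higher and Slc25a45 was lower in knockout. These were 3 of 39 members, or 7.69%, where 9.3% of all genes tested were called, 5.08% higher and 4.22% lower, so the members' share was near the background. The comparison shares its stimulated wild-type libraries with the test of stimulation in wild type. Libraries of the genotypes did not overlap for 13 members, against 27.4% of all genes.

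Slc25a1 (chr16:17925223-17928219, GRCm38) stood at 43.9, 44.3 and 40.2 CPM in stimulated wild type and at 59.4, 55.4 and 59.9 CPM in stimulated knockout. Each knockout library lay above each wild-type library, 1.36-fold in the fit (log2 0.45, SE 0.08, 95% interval 0.28 to 0.61, edgeR adjusted p = 0.00247). In fresh knockout the gene stood at 13.8, 15.3 and 13.5 CPM, among the fresh wild-type values. The call held under each alternative and with each stimulated library left out, with log2 values from 0.40 to 0.48 over the latter.

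Slc25a45 (chr19:5877808-5885878) stood at 9.22, 8.19 and 8.10 CPM in stimulated wild type and at 5.5, 6.33 and 5.77 CPM in stimulated knockout. The groups did not overlap, and knockout was 1.45-fold lower (log2 -0.54, SE 0.09, 95% interval -0.72 to -0.36, edgeR adjusted p = 0.00145). This call also held under each alternative and with each stimulated library left out. In fresh knockout the gene stood at 41.3, 43.4 and 40.7 CPM, overlapping fresh wild type.

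Slc25a24 (chr3:109123149-109168457) stood at 5.21, 3.85 and 4.78 CPM in stimulated wild type and at 6.73, 6.70 and 5.34 CPM in stimulated knockout. The lowest knockout library was just above the highest wild-type library, with a log2 difference of 0.44 (SE 0.13, 95% interval 0.16 to 0.72, edgeR adjusted p = 0.0498). In fresh cells it stood at 7.41, 7.75 and 7.92 CPM in the wild-type libraries and 9.04, 8.01 and 8.49 CPM in knockout. The call lay at the threshold and was lost with DESeq2 (adjusted p = 0.0659), limma-voom (0.0615), no filter on low counts (0.0542), the size factors of DESeq2 (0.05002) and a fit of the 2 groups alone (0.130). It was also lost without stimulated knockout library 1 (edgeR adjusted p = 0.160) or 2 (0.126) and without stimulated wild-type library 2 (0.188) or 3 (0.113).

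**Figure D5:**
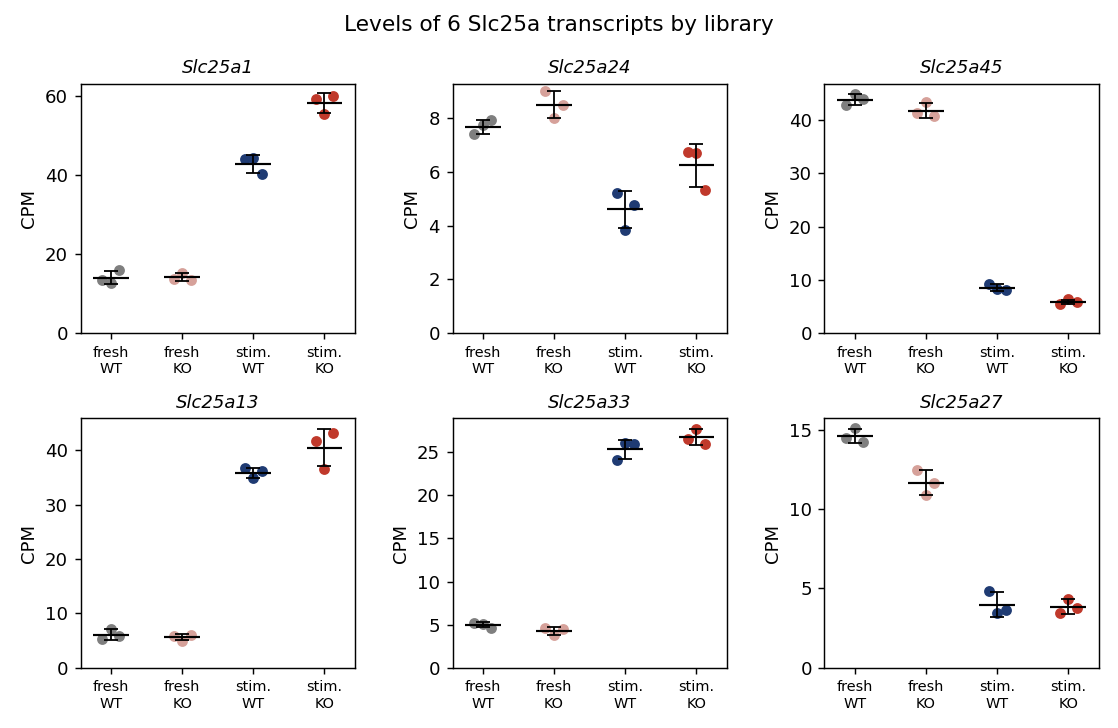
Levels of 6 Slc25a transcripts in CPM on a linear axis from 0. Points are libraries, the line and bar are the mean and SD of 3 libraries in each group. Slc25a1 lies between 55.4 and 59.9 CPM in stimulated knockout, above the 40.2 to 44.3 CPM of stimulated wild type, and Slc25a45 lies between 5.5 and 6.33 CPM, below 8.10 to 9.22 CPM.

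A direct test asked whether the effect of stimulation differed between genotypes. It called 1 member lower, Slc25a45, and 0 higher, where 2.26% of all genes were called, 0.698% higher and 1.56% lower. At an unadjusted p under 0.05, 5 members were higher and 1 was lower, against 970 and 1116 of all 12759 genes tested. Slc25a45 fell by 2.37 on the log2 scale in wild type and by 2.84 in knockout, an interaction of -0.47 (SE 0.11, 95% interval -0.70 to -0.24, edgeR adjusted p = 0.0366). The call depended on the libraries used. It was lost with limma-voom (adjusted p = 0.0597), when the 3 libraries carrying Y-linked reads were dropped (edgeR adjusted p = 0.188), and on leaving out any single library other than stimulated knockout 2 (edgeR adjusted p 0.0522 to 0.0849), while the log2 value stayed between -0.52 and -0.41. For Slc25a1 the interaction was 0.42 (95% interval 0.17 to 0.68, edgeR adjusted p = 0.0758), and DESeq2 called it (adjusted p = 0.0412).

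Genes that work with the carriers were described from a list of 48, of which 46 were listed in the tables and 43 tested. In stimulated wild type, 36 of them rose and 3 fell, where 40.8% and 41.4% of all genes did, with a median log2 fold change of 0.68 against 0.02 for the members. The 9 tested genes of the machinery that imports carrier proteins into the inner membrane all rose, among them the intermembrane chaperone Timm10 (6.38 ± 0.266 to 31.6 ± 2.14 CPM) and the outer-membrane pore Tomm40 (44.1 ± 1.36 to 163 ± 9.30 CPM). The 6 tested enzymes of the malate-aspartate shuttle and of cytosolic citrate use rose as well. The cytosolic transaminase Got1, which works beside Slc25a13, went from 35.8 ± 2.02 to 163 ± 9.46 CPM, and ATP citrate lyase Acly, which cleaves the exported citrate, from 291 ± 3.55 to 435 ± 11.8 CPM.

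Of 10 mitochondrial folate, iron-sulphur and haem enzymes, 7 rose and 1 fell. The folate enzymes Mthfd2 (25.1 ± 1.58 to 381 ± 7.72 CPM) and Shmt2 (142 ± 6.93 to 865 ± 45.2 CPM) led, downstream of the folate carrier Slc25a32. Ferrochelatase, Fech, which uses imported iron to make haem, fell by 0.29 on the log2 scale with overlapping libraries (edgeR adjusted p = 0.0107). Among 15 other channels and carriers 12 rose and 1 fell: the calcium uniporter Mcu went from 14.1 ± 1.13 to 42.3 ± 1.18 CPM and the sideroflexin Sfxn3 from 94.3 ± 2.32 to 42.8 ± 2.30 CPM. Family members without the Slc25a symbol went both ways. Ucp2, an uncoupling protein of immune cells, fell from 556 ± 2.14 to 361 ± 21.6 CPM, and the outer-membrane insertase Mtch2 rose from 45.4 ± 1.58 to 104 ± 4.58 CPM.

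Between genotypes, edgeR called no related gene in fresh cells, where 1.2% of all genes tested were called. At an unadjusted p under 0.05, 3 of the 43 were higher and 4 lower there, against 965 and 838 of all 12759 genes. In stimulated knockout 3 of 43 (6.98%) were higher and 0 lower, which is near or below the 9.3% of all genes called (5.08% higher, 4.22% lower). At an unadjusted p under 0.05, 7 of the 43 were higher and 3 lower, against 1636 and 1392 of all 12759 genes. Acly stood at 435 ± 11.8 CPM in stimulated wild type and 506 ± 10.0 CPM in stimulated knockout (log2 0.22, edgeR adjusted p = 0.00361), the same direction as the citrate carrier Slc25a1. The outer-membrane channels Vdac1 (219 ± 8.54 and 268 ± 9.34 CPM, edgeR adjusted p = 0.00310) and Vdac2 (231 ± 2.97 and 259 ± 1.44 CPM, edgeR adjusted p = 0.00792) were higher too, and both were called in the interaction (edgeR adjusted p = 0.0251 and 0.0258). They were 2 of 43 related genes (4.65%), where the interaction called 2.26% of all genes. Results under the alternatives are not given for related genes. Between stimulated genotypes, 4 of 6 CD8 T cell markers were lower in knockout, the list summing to 1842 to 1966 CPM in the wild-type libraries and 1489 to 1669 CPM in knockout. The dendritic cell list summed to 88.8 to 105 CPM in the wild-type libraries and 77.5 to 95.7 CPM in knockout, with 1 of 11 genes higher and 0 lower. The part of these marker differences in the carriers' values was not tested.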

How the data were processed

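Each sample came with 1 table of whole-number read counts by gene symbol, which the authors deposited unnormalized. The submitters' processing notes name the mm10 build and the tools HTSeq, TopHat, TopHat2 and DESeq2. For tool versions, annotation and strandedness nothing is stated in the sources used here. The 5 summary lines of each file (5.22% to 6.43% of its total) were left out. The labels do not say whether replicates were separate animals. Y-linked reads differed within fresh wild type, fresh knockout and stimulated knockout, so the libraries of each of these groups did not all come from 1 animal. For stimulated wild type this is not known. The p-values reflect only how these libraries vary, which may in part be technical. No pair of replicates agreed within sampling noise.

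For the tests, edgeR 4.0.16 (R 4.3.3) was used. After filterByExpr by group, 12759 genes remained. TMM factors were 0.988 to 1.01, and the quasi-likelihood fit had the 4 groups as coefficients, 12 libraries and 8 residual degrees of freedom. Tests were two-sided with Benjamini-Hochberg adjustment over all genes tested and a threshold of 0.05. Standard errors and 95% intervals come from this fit. CPM are TMM-scaled. Alternatives were DESeq2 1.42.0, limma-voom (limma 3.58.1), size factors of DESeq2, no filter, a fit of the 2 groups compared, leaving out each library, and leaving out libraries with at least 100 Y-linked counts. The procedure was tested on simulated data.

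Exon lengths (the union of exons) and overlaps come from GENCODE M21 on GRCm38, the same build as mm10, and promoter windows from RefSeq. Library values are given for members called between genotypes or in the interaction, and for up to 10 rising and 10 falling called members in wild-type stimulation whose average log2 CPM reached 2 and whose groups did not overlap. Members and lists were chosen with earlier results of these data known. The values of 1 tested member are not reported here; it stays in the counts of members and is not drawn.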

Additional observations from a re-analysis of the deposited data

Results flagged for a closer look

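The fall of Slc25a45 with stimulation passed the threshold in a test of the difference between genotypes, which compared the log2 fold change in knockout with that in wild type. The difference was -0.47 (SE 0.11, edgeR adjusted p = 0.0366), with falls of 2.37 in wild type and 2.84 in knockout on the log2 scale. All 3 stimulated knockout libraries (5.5, 6.33 and 5.77 CPM) lay below all 3 stimulated wild-type libraries (9.22, 8.19 and 8.10 CPM), whereas fresh libraries overlapped. The call was lost with limma-voom (adjusted p = 0.0597), when the 3 libraries carrying Y-linked reads were dropped (edgeR adjusted p = 0.188) and on leaving out any single library but stimulated knockout 2 (edgeR adjusted p 0.0522 to 0.0849). It held with DESeq2, its size factors and no filter on low counts.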

How the results depend on the processing

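The counts of members called by stimulation kept within 1.5 times their value under every alternative run: 15 to 17 higher and 11 to 13 lower in wild type, and 13 to 15 higher and 14 to 17 lower in knockout. In fresh cells the number higher in knockout went from 0 to 1 without fresh wild-type library 1 (range 0 to 1 over single libraries left out). In stimulated cells it went from 2 to 1 with DESeq2, limma-voom, no filter on low counts, only the 2 groups compared and the size factors of DESeq2, and ranged from 1 to 2 over single libraries left out. In the interaction, DESeq2 gave 1 higher member in place of 0, and the number lower went from 1 to 0 with limma-voom and when the 3 libraries carrying Y-linked reads were dropped, with a range of 0 to 1 over single libraries left out. The cause was not tested. Of 533 log2 fold changes of the 20 members named, computed under alternatives, 507 stayed on the same side of the threshold, 26 no longer passed it and 0 reversed. No paired analysis was possible because replicate numbers only name the libraries and the labels tie no library of one group to a library of another. The 8 members under the filter had too few counts to be tested.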
